A study of Mus musculus with 6 samples.

Results

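The antioxidant and glutathione genes are 36 genes whose products remove superoxide and peroxides, make and use glutathione, or control those enzymes. They were chosen by gene symbol, with earlier results of these data known, and all 36 were found among the 24054 genes in the table of counts. Their messenger RNA was measured by RNA-seq in the substantia nigra (SN), the midbrain region that holds the dopamine neurons lost in Parkinson's disease, of 3 MitoPark mice and 3 littermate controls. MitoPark mice (labelled PD; Dat+/Cre: TFAM LoxP/LoxP) have lost Tfam, the gene of a protein that packages and transcribes mitochondrial DNA, from cells with the dopamine transporter, because the Cre recombinase is driven from the dopamine transporter gene Slc6a3. The littermate controls (TFAM+/LoxP: Dat+/+) carry 1 floxed Tfam allele and no Cre, so the groups also differ in 1 copy of Slc6a3, which holds Cre in MitoParks. Mice of both groups were untreated, had the C57BL/6 background and were 16 to 17 weeks of age by the labels. The labels give the tissue as brain and the methods of the study as SN, and the dissected tissue holds every cell type of the region. Deletion is limited to the cells with the transporter, so the other cells of the dissected tissue keep Tfam.

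Mitochondria leak electrons that turn oxygen into superoxide. Superoxide dismutases turn superoxide into hydrogen peroxide, which catalase, glutathione peroxidases and peroxiredoxins remove. Glutathione peroxidases draw their electrons from glutathione and peroxiredoxins from thioredoxin, and both carriers are recharged by reductases that use NADPH. Nrf2, encoded by Nfe2l2, is the transcription factor that raises many of these genes under oxidative stress, and Keap1 marks it for breakdown in unstressed cells. Nigral dopamine neurons are known for a high load of oxidants, since dopamine itself oxidises and their firing keeps mitochondria busy.

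Nrf2 binds the antioxidant response element, whose core letters are TGACNNNGC. A search for these letters on both strands, in windows of 250 bases before and 50 bases after each gene's start (RefSeq, GRCm38.p6), found them in 7 of the 30 members with a window, or 23.3%. The share was 16.7% of the 10904 tested genes with a window, 14.0% of the 27025 genes with any window and 12.4% of all 32851 windows. Many genes have several windows, and over the 42 windows of the members the share was 16.7%. Sod3, Prdx6, Gclc, Gsr, Gsta4 and Hmox1 had no window and were not searched. No overlap with another motif was examined. The genes printed below were picked by a match of letters before the start, not by a response to Nrf2. Each match is printed on the strand of its gene, 5′ to 3′, with the matching letters in capitals.
Gclm (chr3:122245408-122245446, + strand, first capital 134 bases before the start): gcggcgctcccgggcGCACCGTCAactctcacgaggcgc
Gstm5 (chr3:107895797-107895835, + strand, 42 bases before): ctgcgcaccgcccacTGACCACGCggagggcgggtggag
Nfe2l2 (chr2:75704880-75704913, - strand, 240 bases before): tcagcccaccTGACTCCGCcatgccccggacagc
Prdx1 (chr4:116685451-116685489, + strand, 133 bases before): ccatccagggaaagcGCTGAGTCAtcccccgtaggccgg
Sod1 (chr16:90220691-90220729, + strand, 56 bases before): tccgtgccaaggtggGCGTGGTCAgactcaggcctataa
Txnrd1 (chr10:82859099-82859137, + strand, 92 bases before): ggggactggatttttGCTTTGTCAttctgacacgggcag
Gstm5 and Nfe2l2 hold the letters as written and the other four their reverse complement. The seventh member, Srxn1, holds them 28 bases after its start. A match of letters is a description of the window, not a bound site.

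Reads were counted as RSEM expected counts, which summed to between 8140777 and 10528602 per mouse, so that 3 counts correspond to 0.285 to 0.365 CPM, counts scaled to a common library size with edgeR's TMM factors. Values of 3 mice are listed in the order of their numbers, 1, 2 and 3. Tfam was at 40.3, 44.3 and 45.4 CPM in the control mice and 32.6, 33.0 and 33.2 CPM in the MitoPark mice, lower in every MitoPark, with a log2 fold change of -0.40 (SE 0.11). Slc6a3 was at 72.5, 65.2 and 383 CPM in the control mice and 13.3, 51.0 and 40.9 CPM in the MitoPark mice, and Th, which encodes tyrosine hydroxylase, at 55.6, 47.4 and 159 CPM in the control mice and 39.0, 57.0 and 65.5 CPM in the MitoPark mice, so the defining markers of dopamine neurons were present in every mouse. The 8 dopamine neuron markers summed to 334, 374 and 1065 CPM in the control mice and 196, 356 and 341 CPM in the MitoPark mice, and littermate control 3 stood far above the other 5 mice. In bulk tissue, fewer cells of a type and less RNA per cell cannot be told apart. The 6 oligodendrocyte markers summed to 6691, 9444 and 17739.7 CPM in the control mice and 9194, 11929.6 and 15096 CPM in the MitoPark mice, the 6 astrocyte markers to 3196, 3014 and 3604 CPM in the control mice and 3206, 3838 and 3539 CPM in the MitoPark mice, and the 6 microglia markers to 224, 269 and 301 CPM in the control mice and 285, 283 and 297 CPM in the MitoPark mice. Ranges over the 6 mice were 2871 to 4110.5 CPM for 4 neuron markers, 129 to 216 CPM for 5 endothelial markers, 38.0 to 65.2 CPM for 5 fibroblast markers, 20.9 to 169.9 CPM for 4 choroid plexus and ependyma markers, 108 to 239.6 CPM for 5 red cell markers and 128 to 168 CPM for 5 striatal neuron markers.

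All 36 members passed the filter on low counts, a mean above 1 CPM in at least 1 group, as did 14568 genes in all. No member met the cutoffs of the study, a fold change over 1.5 at p below 0.05 without adjustment, which 84 genes met, or 0.577% of those tested. At an unadjusted p below 0.05 alone there were also 0 members, against 161 genes, or 1.11%, and DESeq2 and limma-voom also gave 0 members. After Benjamini-Hochberg adjustment over all genes tested, neither the members nor any other gene passed 0.05 (0%), and the lowest adjusted p of edgeR's test was 0.999. The mean of MitoParks was higher for 17 members and lower for 19, or 52.8%, where 51.4% of all genes tested were lower. The median log2 fold change over the members was -0.020, beside -0.0047 over all genes, and the median of its size without sign was 0.071 for the members and 0.086 for all genes. The groups did not overlap for 1 member, Hmox1, which was lower in MitoParks; over all genes they did not overlap for 4.71%, of which 2.28% of genes tested were lower and 2.43% higher in MitoParks.

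How far these data limit a difference can be read from the intervals. For 30 of the 36 members, the 95% interval of the fold change lay wholly within 1.5-fold in both directions, which held for 66.5% of all genes tested. The other 6 were Sod3, Gpx3, Gpx7, Gpx8, Txnip and Hmox1. Sod3, Gpx7, Gpx8, Hmox1 and Nqo1 had fewer than 100 counts in every mouse. Across all 6 mice together, the highest value was less than 1.5 times the lowest for 27 members, or 75%, a share that was not computed for all genes.

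**Figure D1:**
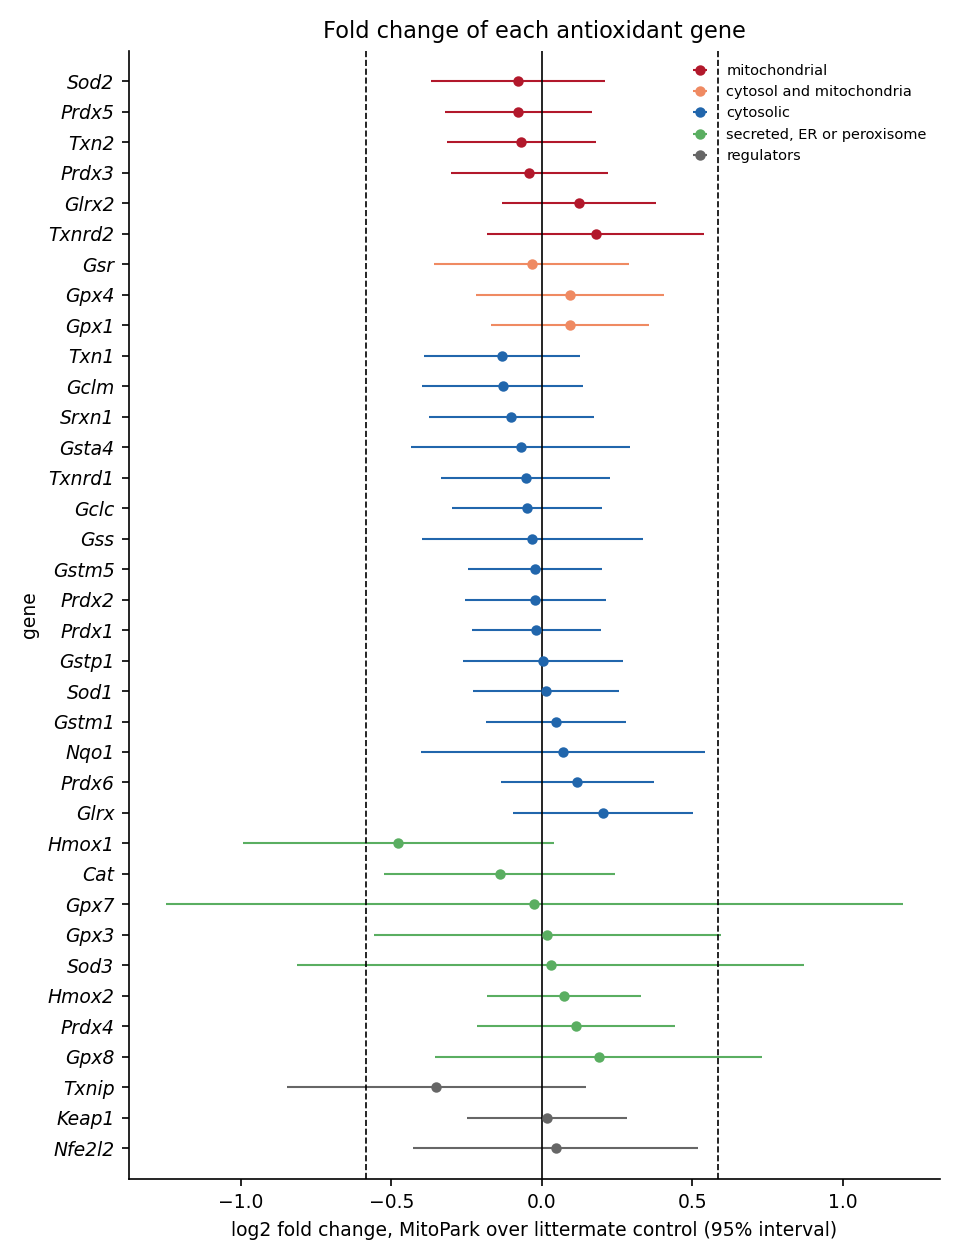
Log2 fold change of each of the 36 genes, MitoPark over littermate control, on the x axis, with its 95% interval (edgeR, 3 mice per group), coloured by compartment; dashed lines mark 1.5-fold in each direction. Every interval crosses 0, and those of Hmox1, Txnip, Sod3, Gpx3, Gpx7 and Gpx8 reach past a dashed line.

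Each gene was placed in a compartment by where the main form of its protein is known to be. The mitochondrial enzymes are those most directly placed beside the organelle that Tfam serves. Of these 6 genes, 4 had a lower and 2 a higher mean in MitoParks, with log2 fold changes from -0.079 to 0.18 and a median of -0.055. Sod2, the manganese superoxide dismutase of the matrix, was at 201, 210.5 and 221 CPM in the control mice and 180.0, 237 and 182 CPM in the MitoPark mice. MitoPark 2 was the highest of the 6 mice and MitoParks 1 and 3 the lowest, so the range of MitoParks spanned that of the controls. The log2 fold change was -0.079 (95% interval, -0.37 to 0.21), and it was -0.21 without MitoPark 2 and 0.00070 without MitoPark 1.

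Prdx3 and Prdx5 encode the peroxiredoxins of mitochondria. Prdx3 was at 55.9, 70.2 and 61.7 CPM in the control mice and 60.2, 60.1 and 62.3 CPM in the MitoPark mice, with a log2 fold change of -0.041 (95% interval, -0.30 to 0.22). Prdx5 was at 103, 121 and 128 CPM in the control mice and 109.8, 113 and 111 CPM in the MitoPark mice, with a log2 fold change of -0.078 (95% interval, -0.32 to 0.17). For both, the 3 MitoParks lay close together and inside the range of the controls. The SD of Prdx5 was 12.7 CPM among littermate controls and 1.52 CPM among MitoParks.

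Txn2, the mitochondrial thioredoxin that reduces Prdx3, was at 60.6, 72.2 and 67.4 CPM in the control mice and 65.0, 60.0 and 66.1 CPM in the MitoPark mice. Its log2 fold change was -0.068 (95% interval, -0.32 to 0.18). Txnrd2, the reductase that recharges it, was at 9.68, 10.7 and 9.86 CPM in the control mice and 11.4, 10.2 and 12.7 CPM in the MitoPark mice, with a log2 fold change of 0.18 (95% interval, -0.18 to 0.54). MitoParks 1 and 3 lay above every control for Txnrd2, and MitoPark 2 lay among them. Glrx2, a glutaredoxin found mainly in mitochondria, was at 60.1, 64.4 and 67.2 CPM in the control mice and 67.1, 64.2 and 77.8 CPM in the MitoPark mice and had a log2 fold change of 0.13 (95% interval, -0.13 to 0.38). Without MitoPark 3, the values of Txnrd2 and Glrx2 were 0.099 and 0.039.

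Gpx1, Gpx4 and Gsr act in the cytosol and in mitochondria. Gpx1, the most widespread glutathione peroxidase, was at 49.8, 59.9 and 59.3 CPM in the control mice and 58.6, 57.8 and 64.2 CPM in the MitoPark mice, with a log2 fold change of 0.095 (95% interval, -0.17 to 0.36). Gpx4, which reduces lipid peroxides in membranes and guards against ferroptosis, was at 159.9, 218 and 226 CPM in the control mice and 214, 204 and 226 CPM in the MitoPark mice, with a log2 fold change of 0.093 (95% interval, -0.22 to 0.41). For both genes littermate control 1 was the lowest of the 6 mice, and the other 5 lay close together. Without that control, the log2 fold change of Gpx4 was -0.042 and that of Gpx1 was 0.020. Gsr, glutathione reductase, ranged from 25.7 to 34.9 CPM and had a log2 fold change of -0.034 (95% interval, -0.36 to 0.29), again with littermate control 1 lowest.

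Of the 16 cytosolic enzymes, 6 had a higher and 10 a lower mean in MitoParks, with a median log2 fold change of -0.022 and a range from -0.13 to 0.20. Sod1, the copper-zinc superoxide dismutase and the counterpart of Sod2, was at 189.7, 228 and 205 CPM in the control mice and 222, 202 and 206 CPM in the MitoPark mice. All 3 MitoParks lay within the range of the controls, and the log2 fold change was 0.016 (95% interval, -0.23 to 0.26).

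Of the cytosolic peroxiredoxins, Prdx1 varied least between mice, its highest value being 1.10 times its lowest, beside 1.16 for Prdx2 and 1.29 for Prdx6. Prdx1 ranged from 163 to 179 CPM over the 6 mice, with a log2 fold change of -0.018 (95% interval, -0.23 to 0.20). Prdx2, the form best known from neurons and red cells, ranged from 121 to 139.9 CPM, with a log2 fold change of -0.022 (95% interval, -0.26 to 0.21). Prdx6, which uses glutathione in place of thioredoxin and is known for astrocytes in brain, was at 167, 193 and 182 CPM in the control mice and 176, 197 and 214 CPM in the MitoPark mice, with a log2 fold change of 0.12 (95% interval, -0.14 to 0.37). Its highest value was in MitoPark 3 and its lowest in littermate control 1. Srxn1, sulfiredoxin, which repairs overoxidised peroxiredoxins, ranged from 109 to 147 CPM, with a log2 fold change of -0.10 (95% interval, -0.38 to 0.17).

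Among the carriers of electrons, Glrx and Txn1 had the largest differences of the cytosolic enzymes, in opposite directions. Glrx, glutaredoxin, which removes glutathione from proteins, was at 34.5, 45.0 and 41.5 CPM in the control mice and 42.7, 46.6 and 50.1 CPM in the MitoPark mice. MitoParks 2 and 3 lay above every control and MitoPark 1 below littermate control 2. The log2 fold change was 0.20 (95% interval, -0.097 to 0.50), with an unadjusted p of 0.161 from edgeR and of 0.2 from an exact two-sided permutation test. Txn1, thioredoxin, was at 55.2, 58.4 and 52.8 CPM in the control mice and 56.0, 48.0 and 47.9 CPM in the MitoPark mice, with a log2 fold change of -0.13 (95% interval, -0.39 to 0.13). MitoParks 2 and 3 lay below every control for Txn1, and MitoPark 1 lay among them. Txnrd1, its reductase, ranged from 74.1 to 99.0 CPM and had a log2 fold change of -0.054 (95% interval, -0.33 to 0.23).

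Glutathione is made in a pair of steps, the first by glutamate-cysteine ligase, of which Gclc is the catalytic and Gclm the modifier subunit. Gclc was at 71.5, 72.9 and 72.7 CPM in the control mice and 65.8, 78.9 and 65.2 CPM in the MitoPark mice. The controls differed by less than 2 CPM, MitoPark 2 lay above them and MitoParks 1 and 3 below, and the log2 fold change was -0.049 (95% interval, -0.30 to 0.20). Gclm was at 35.8, 35.6 and 39.9 CPM in the control mice and 31.7, 37.1 and 33.0 CPM in the MitoPark mice, with MitoParks 1 and 3 below every control and a log2 fold change of -0.13 (95% interval, -0.40 to 0.14). Gss, which carries out the second step, ranged from 13.8 to 20.6 CPM, with both extremes among the littermate controls and a log2 fold change of -0.031 (95% interval, -0.40 to 0.34).

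The glutathione transferases join glutathione to reactive compounds. Gstm1 ranged from 189 to 218 CPM, with a log2 fold change of 0.047 (95% interval, -0.19 to 0.28). Gstm5 ranged from 103 to 116 CPM, with a log2 fold change of -0.022 (95% interval, -0.24 to 0.20). Gstp1 was at 149.8, 154 and 152 CPM in the control mice and 168, 129 and 159 CPM in the MitoPark mice, and the log2 fold change of 0.0040 (95% interval, -0.26 to 0.27) was the smallest of the 36. The SD of Gstp1 was 2.14 CPM among littermate controls and 20.5 CPM among MitoParks. Gsta4, which clears the lipid peroxidation product 4-hydroxynonenal, ranged from 40.6 to 63.1 CPM, with both extremes among the controls and a log2 fold change of -0.071 (95% interval, -0.44 to 0.29). Nqo1, the quinone reductase often read as an Nrf2 target, was at 6.56, 6.36 and 8.20 CPM in the control mice and 6.82, 6.56 and 8.83 CPM in the MitoPark mice, with a log2 fold change of 0.071 (95% interval, -0.40 to 0.54).

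Near-identical copies limit what can be said of single transferases, since RSEM divides reads that fit several genes. Estimated counts that were more than 0.004 from a whole number in some mouse were found for 9 members, Sod2, Txn1, Txnrd2, Txnip, Glrx2, Gstm1, Gstm5, Gstp1 and Hmox2, and the other 27 had whole counts in every mouse. Gstp2, the closest relative of Gstp1 in the table, had 22, 20 and 7 counts in the control mice and 16, 10 and 12 in the MitoPark mice, against at least 1279 for Gstp1. Among the relatives of Gstm1, Gstm6 had 156 to 286 counts and Gstm7 261 to 374, while Gstm2 had 20 or fewer and Gstm3 no more than 2. Gstm4 had 72 to 105 counts, Gsta3 8 to 18 and Txnrd3 81 to 136. Gsta1, Gsta2, Gpx2, Gpx5 and Gpx6 had at most 4 counts in any mouse, and Prdx6b had 0 in all.

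**Figure D2:**
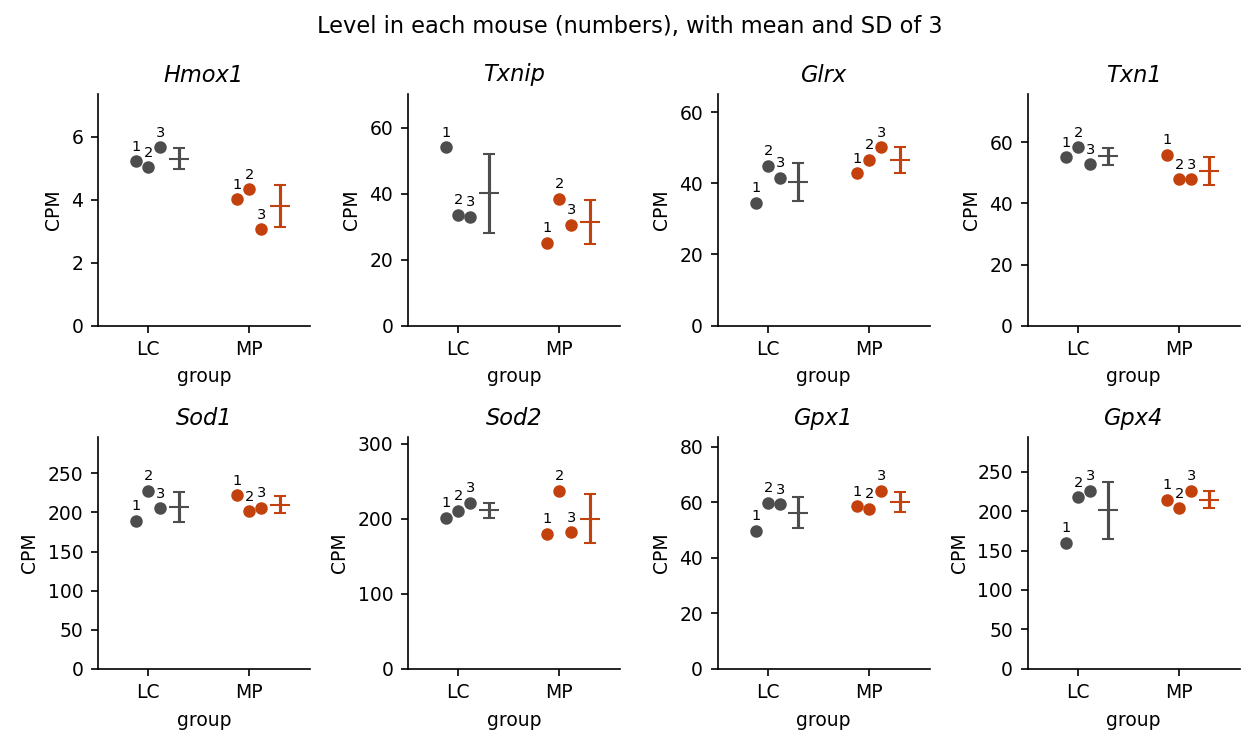
CPM (y axis, from 0) of 8 genes in each mouse, littermate controls (LC) in grey and MitoParks (MP) in orange, numbered by mouse, with the mean and SD of 3 mice beside the points. The groups do not overlap for Hmox1, whereas in the other 7 genes they do; littermate control 1 is the highest mouse for Txnip and the lowest for Glrx, Sod1, Gpx1 and Gpx4.

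Enzymes of one compartment can be set against their counterparts within the same mouse, which removes differences in scaling between libraries. The ratio of Sod2 to Sod1, taken from CPM and so not a ratio of molecules, was 1.06, 0.924 and 1.08 in the control mice and 0.811, 1.18 and 0.883 in the MitoPark mice. The lowest and the highest of the 6 ratios were both in MitoParks. Prdx3 over Prdx1 was 0.339, 0.411 and 0.345 in the control mice and 0.353, 0.369 and 0.357 in the MitoPark mice, and Prdx3 over Prdx2 ranged from 0.436 to 0.517. Txn2 over Txn1 was 1.10, 1.24 and 1.28 in the control mice and 1.16, 1.25 and 1.38 in the MitoPark mice. Txnrd2 over Txnrd1 was 0.0978, 0.130 and 0.117 in the control mice and 0.123, 0.115 and 0.171 in the MitoPark mice, and only MitoPark 3 lay above every control. Glrx2 over Glrx ranged from 1.38 to 1.74. In all 6 ratios the groups overlapped.

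Hmox1, heme oxygenase 1, breaks down heme and is among the best known stress-induced genes of the Nrf2 response. It was counted at low depth, with counts of 47, 53 and 58 in the control mice and 33, 43 and 27 in the MitoPark mice. These counts correspond to 5.23, 5.03 and 5.66 CPM in the control mice and 4.02, 4.34 and 3.06 CPM in the MitoPark mice. Every MitoPark lay below every littermate control, and MitoPark 3 was the lowest. The means were 5.31 ± 0.324 CPM in the control mice and 3.81 ± 0.668 CPM in the MitoPark mice (SD, n = 3 per group). The log2 fold change was -0.48 (SE 0.23), with a 95% interval of -0.99 to 0.042. In edgeR's quasi-likelihood test, p was 0.0674 before and 0.999 after adjustment, and an exact two-sided permutation test gave p = 0.1, the smallest that 3 mice against 3 allow. Leaving out 1 mouse at a time, the log2 fold change lay between -0.58 and -0.34. Over all 14 alternative settings its sign stayed the same and the unadjusted p lay between 0.0597, without MitoPark 2, and 0.178, without MitoPark 3 (edgeR, DESeq2 or limma). The summed markers of microglia, endothelial cells and red cells overlapped between the groups, and the part of those cells in the level of Hmox1 was not tested. Hmox1 did not meet the fold cutoff, since a log2 value of 0.585 corresponds to 1.5-fold. Hmox2, the heme oxygenase that is made without induction, ranged from 62.4 to 78.1 CPM, with a log2 fold change of 0.073 (95% interval, -0.18 to 0.33).

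Of the 8 enzymes outside cytosol and mitochondria, which include both heme oxygenases, 5 had a higher and 3 a lower mean in MitoParks, with a median log2 fold change of 0.024. Of the 9 members whose highest value was 1.5 times the lowest or more, 6 were among these 8. Of these 6, Sod3, Gpx7, Gpx8 and Hmox1 had fewer than 100 counts in every mouse. Low counts and compartment cannot be told apart here. Sod3, the superoxide dismutase of the extracellular space, was at 4.67, 5.31 and 9.18 CPM in the control mice and 3.65, 6.06 and 9.85 CPM in the MitoPark mice, with a log2 fold change of 0.029 (95% interval, -0.81 to 0.87). In both groups mouse 1 was the lowest and mouse 3 the highest. Cat, the catalase of peroxisomes, was at 56.3, 66.3 and 88.3 CPM in the control mice and 55.0, 66.1 and 70.3 CPM in the MitoPark mice, with the same order in both groups and a log2 fold change of -0.14 (95% interval, -0.52 to 0.24). It was 0.058 without littermate control 3. The oligodendrocyte markers given above also had mouse 1 lowest and mouse 3 highest in each group, and their part in the levels of Sod3 and Cat was not tested.

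Gpx3, the secreted glutathione peroxidase, was at 191, 179 and 99.0 CPM in the control mice and 209.8, 136 and 130.0 CPM in the MitoPark mice. Littermate control 3 and MitoPark 1 were the extremes, and the log2 fold change was 0.019 (95% interval, -0.56 to 0.59). Gpx7, a peroxidase of the endoplasmic reticulum, rested on few reads, with counts of 9, 38 and 10 in the control mice and 18, 22 and 10 in the MitoPark mice. Littermate control 2 stood apart, and it was also the mouse with the highest choroid plexus and ependyma sum, 169.9 CPM against 20.9 to 49.4 CPM in the other 5. The part of those cells in Gpx7 was not tested. The log2 fold change of Gpx7 was -0.024 (95% interval, -1.25 to 1.2003), and 0.90 without littermate control 2. Gpx8, also of the endoplasmic reticulum, had counts of 40, 49 and 44 in the control mice and 31, 53 and 54 in the MitoPark mice and a log2 fold change of 0.19 (95% interval, -0.36 to 0.73). Prdx4, the peroxiredoxin of the endoplasmic reticulum, ranged from 12.6 to 16.7 CPM, with a log2 fold change of 0.11 (95% interval, -0.22 to 0.44).

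The 3 regulators had a median log2 fold change of 0.018. Nfe2l2 was at 18.7, 24.5 and 30.0 CPM in the control mice and 18.6, 28.9 and 28.0 CPM in the MitoPark mice, with mouse 1 lowest in both groups and a log2 fold change of 0.046 (95% interval, -0.43 to 0.52). Keap1 was at 70.6, 82.0 and 75.6 CPM in the control mice and 83.8, 67.8 and 79.6 CPM in the MitoPark mice, with a log2 fold change of 0.018 (95% interval, -0.25 to 0.28). Messenger RNA levels do not report the amount of Nrf2 protein, which Keap1 controls. Txnip, which binds and inhibits thioredoxin, was at 54.1, 33.6 and 33.0 CPM in the control mice and 25.2, 38.5 and 30.6 CPM in the MitoPark mice. Littermate control 1 was far above the other 5 mice, and MitoPark 1 was the lowest. The log2 fold change of Txnip was -0.35 (95% interval, -0.85 to 0.15), the second largest in size among the 36, with an unadjusted p of 0.145 from edgeR and of 0.4 from an exact two-sided permutation test. Without littermate control 1 it was -0.076.

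**Figure D3:**
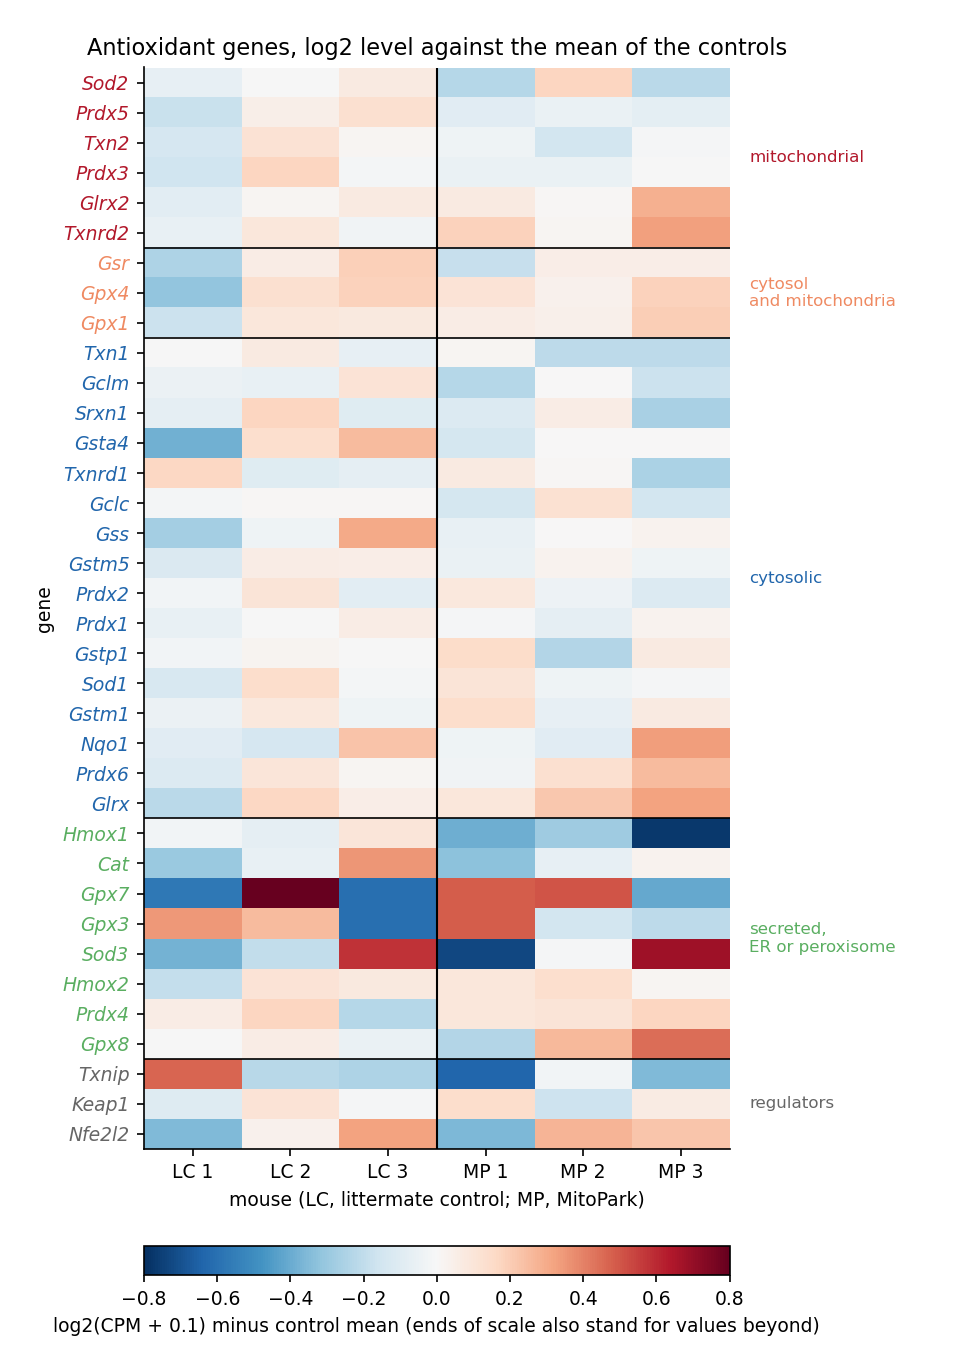
Each cell shows log2(CPM + 0.1) of 1 gene in 1 mouse minus the mean of the 3 littermate controls (colour scale, log2), with genes grouped by compartment and littermate controls (LC) left of the line from MitoParks (MP). Most cells are pale; the deepest colours are those of Gpx7, Gpx3, Sod3, Txnip and Hmox1, and the column of littermate control 1 is blue for 32 of 36 genes.

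Single mice differed more in the members' median than the groups did, with median deviations from the control mean of -0.097, 0.068 and 0.034 on the log2 scale in the control mice and -0.032, 0.0013 and 0.021 in the MitoPark mice. The members together took 0.281% to 0.309% of the counts of each mouse, and their CPM summed to between 2784 and 3088, with littermate control 1 at the lower and littermate control 2 at the upper end. Littermate control 1 lay below the mean of the controls for 32 of the 36 members, or 88.9%, while it lay below that mean for 50.3% of all genes tested. The same share of members was 27.8% in littermate control 2 and 41.7% in littermate control 3, and 55.6%, 44.4% and 44.4% in MitoParks. Littermate control 1 was the lowest of the 6 mice for 14 members, or 38.9%, beside 17.8% of all genes. Its median deviation was -0.11 for mitochondrial and -0.066 for cytosolic enzymes. MitoParks had median deviations of -0.042, -0.020 and -0.0048 for mitochondrial and -0.019, 0.00060 and -0.0033 for cytosolic enzymes. Littermate control 1 also had the lowest oligodendrocyte, microglia and red cell sums of the 6 mice, and the part of those cells in its levels was not tested. Without it, 25 members had a lower and 11 a higher mean in MitoParks, with a median log2 fold change of -0.047, beside -0.0007 over all genes. Without littermate control 3, the mouse with the highest dopamine neuron sum, 14 were lower and 22 higher. The median was then 0.011 for the members and -0.005 for all genes. The share of all genes that were lower was not computed in either case. No member had an unadjusted p below 0.05 in either case (edgeR).

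**Figure D4:**
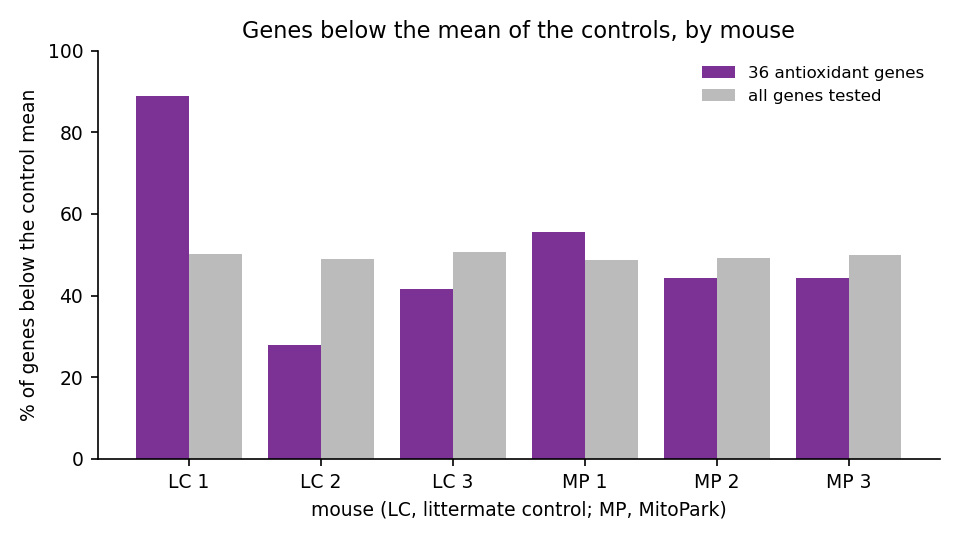
Percent of genes (y axis) below the mean of the 3 littermate controls in each mouse, for the 36 antioxidant genes (purple) and all 14568 genes tested (grey). The purple bar reaches 88.9% in littermate control 1 and lies between 27.8% and 55.6% in the other 5 mice, while the grey bars lie near 50% throughout.

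Levels can be compared between genes only per transcript length, for which the longest protein-coding transcript of each gene in GENCODE M21 was used. On this scale Sod1 was the highest member, at 296 to 355 CPM per kilobase in the 3 littermate controls, above Gpx4 at 161 to 227 in every one of them. Gstp1 followed at 182 to 188, within the spread of Gpx4, and Gstm1 at 148 to 163. Gstm5 and Gpx3 had control means of 118 and 98.2 CPM per kilobase, and the values of Gpx3 in single controls reached from below those of Prdx6 to within those of Gstm5. The peroxiredoxins Prdx5, Prdx2, Prdx6 and Prdx1 followed at means of 92.9, 80.8, 75.5 and 74.8, with overlapping values. Sod2 had a mean of 36 CPM per kilobase and Cat of 26.9. Nfe2l2 was at 9.85, and Nqo1, Gpx8, Txnrd2, Hmox1, Sod3 and Gpx7 were the 6 lowest, from 4.53 down to 1.44. The first 5 genes in the order were the same in MitoParks. With the median length over transcripts in place of the longest, Glrx2 moved from place 24 to place 12, so its level depends on which transcript is used.

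**Figure D5:**
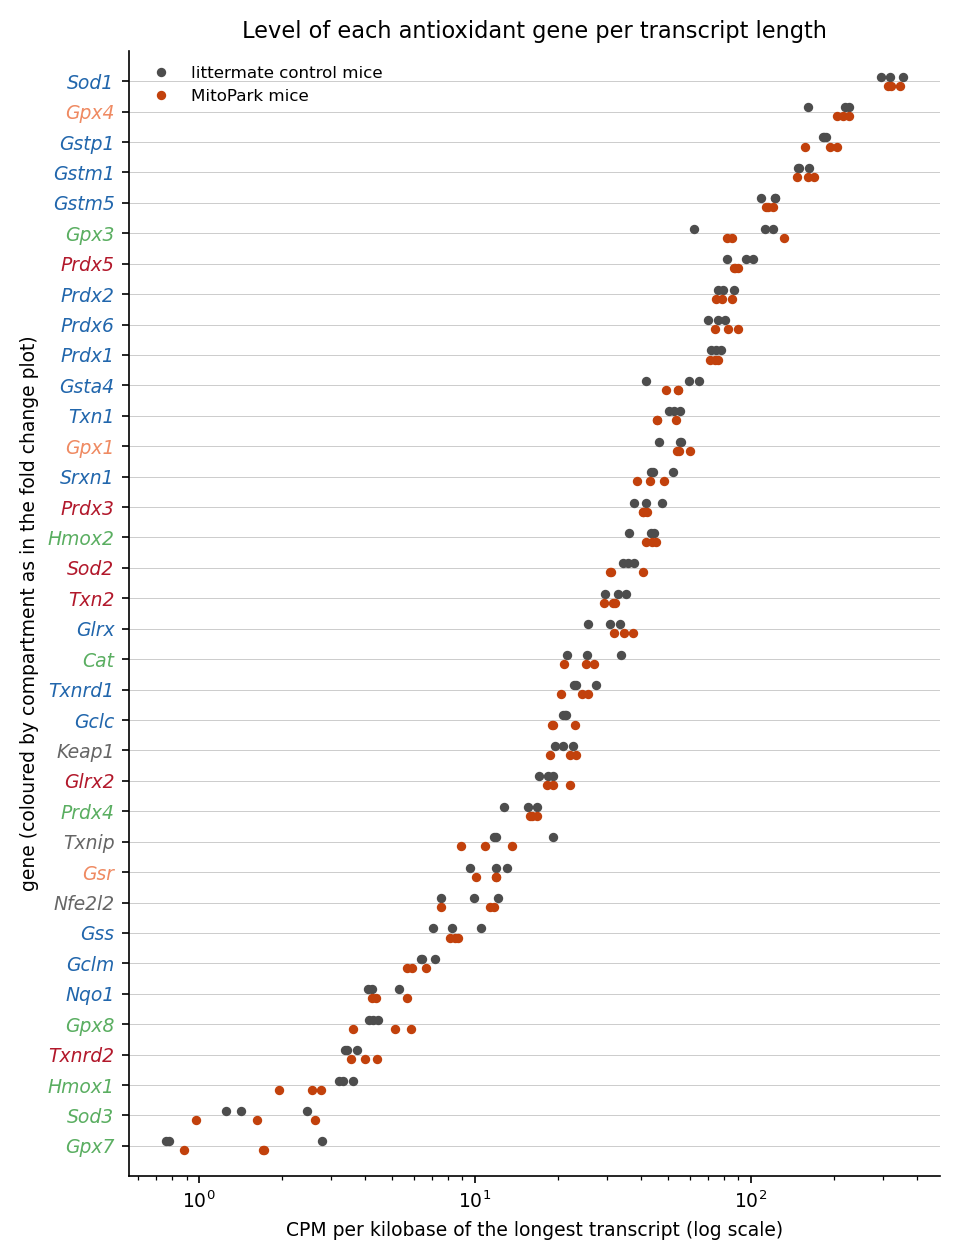
CPM per kilobase of the longest transcript (x axis, log scale) of each gene in each littermate control (grey) and MitoPark (orange), ordered by the mean of the controls. The levels of the 36 genes run from Sod1 at the top to Gpx7 at the bottom, and grey and orange points overlap in every gene but Hmox1.

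Genes next to this set were read from a list of 74 further redox genes, of which 71 passed the filter. None met the cutoffs, and none had an unadjusted p below 0.05 (edgeR). Their means were higher in MitoParks for 37 and lower for 34, with a median log2 fold change of 0.012. The groups did not overlap for 5 of them, all higher in MitoParks, or 7.04%, beside 2.43% of all genes tested in that direction, and for 0 in the other. The list was not tested as a set. Of its 6 groups, NADPH supply had 2 higher and 6 lower of 8, other transferases 8 and 4 of 12, other thioredoxin and glutaredoxin proteins 3 and 6 of 9, methionine sulfoxide reductases, sestrins and others 9 and 12 of 21, and partners and rivals of Nrf2 5 and 4 of 9.

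The sixth group, cystine import and glutathione turnover, had 10 higher and 2 lower of 12, with a median log2 fold change of 0.10 that lay between 0.045 and 0.17 over the 13 alternatives other than the replicate block. The genes named here and in the next paragraph were chosen after their values were seen. Chac1, which breaks down glutathione inside cells, was at 6.23, 5.60 and 6.25 CPM in the control mice and 8.04, 6.46 and 6.57 CPM in the MitoPark mice, with a log2 fold change of 0.22 (95% interval, -0.22 to 0.66). Ggt5, which cleaves glutathione outside them, was at 2.00, 1.42 and 1.95 CPM in the control mice and 2.56, 2.73 and 2.72 CPM in the MitoPark mice, from no more than 27 counts per mouse, with a log2 fold change of 0.57 (95% interval, -0.080 to 1.23). Oplah, which returns the cyclic product of that cycle to glutamate, was at 20.5, 17.1 and 20.7 CPM in the control mice and 20.7, 22.2 and 22.5 CPM in the MitoPark mice, with a log2 fold change of 0.17 (95% interval, -0.12 to 0.46). In all 3 genes each MitoPark lay above each control, and for Oplah, MitoPark 1 and littermate control 3 were equal to within rounding. These 3 are 25% of the group, beside 2.43% of all genes tested in that direction. The 2 lower genes were Chac2 and Slc25a40. Chac2, with 71 to 143 counts, had a log2 fold change of -0.18 (95% interval, -0.61 to 0.25) and Slc25a40 of -0.14 (95% interval, -0.44 to 0.155). Ggt7 and Ggct were each at 0.050.

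Slc7a11, the cystine carrier that feeds glutathione synthesis, was at 72.4, 51.7 and 47.2 CPM in the control mice and 71.4, 75.1 and 71.0 CPM in the MitoPark mice. MitoParks lay close together, littermate control 1 among them and the other two controls below. The log2 fold change was 0.35 (95% interval, -0.0087 to 0.70), with an unadjusted p of 0.0548 in edgeR and 0.3 in an exact two-sided permutation test. Without littermate control 1 it was 0.56 (unadjusted p = 0.0012, edgeR). It was 0.28 without littermate control 2 (unadjusted p = 0.167, edgeR) and 0.23 without littermate control 3 (unadjusted p = 0.181, edgeR). The unadjusted p was below 0.05 in 4 of the 13 alternatives, limma-voom among them. The fold cutoff was met in none of them. The remaining genes whose groups did not overlap were Gstt3, a transferase, at 6.45, 7.40 and 7.91 CPM against 9.99, 8.28 and 9.85 CPM, and Bach1, a repressor of Nrf2 targets such as Hmox1, at 22.8, 21.2 and 20.1 CPM against 23.9, 23.3 and 24.1 CPM. Their log2 fold changes were 0.37 (95% interval, -0.043 to 0.77) and 0.15 (95% interval, -0.10 to 0.41).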

How the data were processed

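Polyadenylated RNA from the SN of 3 MitoParks and 3 littermate controls was sequenced from strand-specific libraries. The authors mapped reads to UCSC transcripts with Bowtie2 2.1.0, estimated expected counts per gene with RSEM 1.2.15 and deposited these expected counts, not normalized, for 24054 genes. The labels name a human genome build for these mouse libraries, so gene coordinates are given only for RefSeq promoter windows. Groups came from the labels, and no column belonged to an unmapped sample. Nothing beyond the labels ties mice to litters or batches.

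The values were rounded to integers, and genes whose mean exceeded 1 CPM in either group were kept, normalized by TMM and compared with edgeR 4.0.16 (quasi-likelihood test, R 4.3.3) across 14568 genes, with Benjamini-Hochberg adjustment over all of them. Intervals of 95% come from the same fit. Exact two-sided permutation tests used log2(CPM + 0.1). Because reads carry no molecular identifiers, the floor of 3 counts covers counting error only. Total counts were 8140777 to 10528602 per mouse. No pair of mice within a group agreed within sampling noise (chi-square per degree of freedom, 9.73 or more), so each counted as 1 replicate. All 36 members are named; other genes are Tfam, Slc6a3, Th, close relatives of members, cell type markers and further redox genes with an unadjusted p below 0.05, of which there were 0, and genes outside this rule are marked. Of the listed genes, Selenop, Selenow, Selenok and Drd1 were found under older symbols through RefSeq synonyms. The members and lists were chosen with earlier results of these data known. Alternatives were RLE and total count scaling, filterByExpr or no filter, DESeq2 1.42.0, limma-voom (limma 3.58.1), robust dispersion, a block for the replicate number, and leaving out every mouse once. The procedure was tested on simulated data.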

Additional observations from a re-analysis of the deposited data

How the results depend on the processing

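None of the 36 members met the cutoffs or had an unadjusted p below 0.05 under any of the 14 alternatives (edgeR, DESeq2 or limma). Signs were less stable, and 15 members kept theirs throughout. The median log2 fold change of the members lay between -0.047 (without littermate control 1) and 0.011 (without littermate control 2 or 3). It was -0.0055 with total counts, where the median of all genes was 0.0091. Between single mice, the members' median had a pooled SD within groups of 0.071. That SD describes single mice and is not a like measure for a range of group differences. Sod3, Gpx7 and Gstp1 changed sign with limma-voom, and no member changed sign with another scaling or filter. The number of all genes past the cutoffs, 84, was 176 with no filter on low counts, which tests more genes, and between 62 and 219 with each mouse left out; without littermate control 1 it was 133, without littermate control 3 it was 219 and without MitoPark 2 it was 217. The cause of the latter was not tested.

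With the replicate block, 126 genes met the cutoffs, 83 higher and 43 lower, and 1 had an adjusted p below 0.05 (edgeR). The block left 0 members past the cutoffs, with a median log2 fold change of -0.010. The deviations of same-numbered mice correlated at 0.307, -0.0738 and 0.244 over all genes tested, and 4 of 6 mice correlated best with their own number. The correlations were positive for 2 of the 3 numbers, but they come from the data and not the design. Deviations were taken from the mean of each group, so the correlations depend on each other. No reference for unpaired mice was computed, so these values cannot show pairing. The methods of the study name no block, so the block was kept as an alternative. With the block, Slc7a11 had a log2 fold change of 0.37 (unadjusted p = 0.0189, edgeR).

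With 3 mice per group, the data limit most members to less than 1.5-fold, but the intervals of Hmox1, Gpx7, Gpx8, Sod3, Txnip and Gpx3 reach beyond it. Of these, Hmox1, Gpx7, Gpx8 and Sod3 rest on fewer than 100 counts per mouse. The dopamine neurons, the cells that lose Tfam, give only part of the RNA.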
